A study of Mus musculus with 12 samples.

Results

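Phase II conjugation enzymes attach a water-soluble group to drugs, hormones, bile pigments and reactive metabolites so that bile and urine can carry them away. The genes described here are the rows of the deposited expression table whose symbols begin with Gst followed by a class letter (a, k, m, o, p, t or z), with Mgst, with Ugt families 1 to 3, or with Sult. The rule found 63 genes of 24340 rows. Of these, 24 belong to glutathione transfer, 20 to glucuronide transfer and 19 to sulfate transfer.

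The samples were livers of C57BL/6 mice from Taconic Bioscience. Mice drank plain water (CTL) or water with PPA, which is 3-phenylpropionic acid, a product of bacteria in the gut, for 4 weeks. All mice were then fasted for 16 h, and livers were taken at 0 or 6 h after 300 mg/kg acetaminophen (APAP) given into the peritoneum. The 4 groups, CTL and PPA at 0 h and CTL and PPA at 6 h, held 3 libraries each. The mice carried no engineered allele that the labels name. Whether the 0 h mice were injected at all, and whether each library came from its own mouse, is not stated, so the p-values measure the spread between these libraries, which may be technical. No library was taken at 6 h without APAP. APAP, any longer fast and the time of day therefore cannot be told apart, and "APAP response" below means 6 h against 0 h.

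APAP is cleared mainly by glucuronide and sulfate transfer. Glucuronosyltransferases (UGT) move glucuronic acid from UDP-glucuronic acid to the drug, and cytosolic sulfotransferases (SULT) move sulfate from the activated donor PAPS. The part that P450 enzymes oxidise becomes the reactive quinone imine NAPQI, which is bound by glutathione, partly with the help of glutathione S-transferases (GST). Mice that lack the Gstp genes have been described as resistant to APAP liver injury, which makes the pi class of particular interest in this model.

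Expression values were the authors' FPKM (fragments scaled to transcript length and library total), which can be set side by side between genes because they are per length. They summed to between 593025 and 769104 per library. The steps between low values put the depth at an estimated 3230000 to 4970000 fragments in the 0 h libraries and 7010000 to 10100000 in the 6 h libraries, so depth and time cannot be told apart. The lowest correlation between replicates, across genes, was r = 0.976. Defining hepatocyte genes summed to between 21485 and 37149 FPKM in every group. The neutrophil list (4 of its 5 genes are in the table) summed to between 0 and 2.88 FPKM at 0 h and between 11.1 and 52.6 at 6 h, and S100a8, S100a9 and Retnlg, which passed the filter on low values only through the 6 h libraries, are described by these sums alone. Skeletal muscle genes reached a sum of 75.0 FPKM in CTL 6 h replicate 4 and at most 1.52 in the 0 h and PPA libraries. Of 5 kidney genes, Slc12a1, Kap and Slc34a1 were listed at 0 in all 12 libraries, and Umod and Aqp2 did not exceed 0.132 and 0.108 FPKM. Of 5 pancreas genes, Prss1, Cpa1, Pnlip and Amy2a5 were listed at 0 throughout, and Cela1 was at 6.24 to 14.3 FPKM. Xist stayed at or below 0.0168 FPKM and Ddx3y at or above 5.2, the pattern of male mice.

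Of the 63 genes, 42 reached 1 FPKM in at least 3 libraries and were tested: 21 of glutathione, 15 of glucuronide and 6 of sulfate transfer. The other 21 never exceeded 1.35 FPKM. Among them 5 sulfotransferases, Sult1c1, Sult2a3, Sult2a4, Sult2a5 and Sult6b1, were listed at 0 in every library. Sult2a1 and Sult3a1, which female mouse liver expresses far more than male liver, did not exceed 0.261 and 0.117 FPKM.

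In a fasted CTL liver at 0 h the GST genes summed to 7989 ± 815 FPKM (SD, n = 3), the UGT genes to 1215 ± 31.4 and the SULT genes to 449 ± 53.0. Mgst1, the microsomal GST of the endoplasmic reticulum and outer mitochondrial membrane, made up 46.3% of the GST sum and Gstp1 21.9%. Ugt1a6b, Ugt2b5 and Ugt2b36 made up 18.9%, 17.9% and 17.4% of the UGT sum, and the place of Ugt1a6b rested on CTL 0 h replicate 1 (340.4 FPKM against 176 and 175). Sult1a1, the phenol sulfotransferase that acts on APAP, held 59.8% of the SULT sum, and Sult2a8, a bile acid sulfotransferase of mouse liver, held 28.6%.

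The class sums are given as a description, with no test. The GST sum was 7909.8 ± 118 FPKM in PPA at 0 h, 7848 ± 499 in CTL at 6 h and 8207 ± 432 in PPA at 6 h, and these means lay closer together than 1 SD of CTL at 0 h. The UGT sum was 1197 ± 99.6, 985 ± 40.0 and 987 ± 109 in the same order. The SULT sum was 407 ± 9.5, 342 ± 33.9 and 334 ± 32.6. For the UGT and the SULT sums, all 3 libraries at 6 h lay below all 3 at 0 h in CTL and in PPA. For the GST sum they did not.

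Sequences of the promoters are shown for the genes whose changes or levels stand out: the alpha class pair Gsta1 and Gsta2, the pi class pair Gstp1 and Gstp2, and Ugt1a1. They run from 200 bases before the RefSeq transcription start (GRCm38.p6, the build called mm10) through the first 20 transcribed bases, 5′ to 3′. In the GST promoters the capitals mark GCGTG, the core of the xenobiotic response element (XRE) bound by the aryl hydrocarbon receptor. In Ugt1a1 they mark ATTAAC, the reverse strand of GTTAAT, a half-site of the hepatocyte factor HNF1.
Gsta1, chr9:78230469-78230688, plus strand: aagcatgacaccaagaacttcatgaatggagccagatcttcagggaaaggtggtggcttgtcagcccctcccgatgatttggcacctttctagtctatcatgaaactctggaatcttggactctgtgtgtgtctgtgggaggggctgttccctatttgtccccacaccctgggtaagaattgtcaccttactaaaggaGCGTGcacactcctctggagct
Gsta2, chr9:78347126-78347345, minus strand: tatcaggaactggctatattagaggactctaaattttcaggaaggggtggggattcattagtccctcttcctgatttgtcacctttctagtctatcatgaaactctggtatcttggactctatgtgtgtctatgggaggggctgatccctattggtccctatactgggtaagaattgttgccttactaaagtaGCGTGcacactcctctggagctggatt
Gstp1, chr19:4037893-4038112, minus strand: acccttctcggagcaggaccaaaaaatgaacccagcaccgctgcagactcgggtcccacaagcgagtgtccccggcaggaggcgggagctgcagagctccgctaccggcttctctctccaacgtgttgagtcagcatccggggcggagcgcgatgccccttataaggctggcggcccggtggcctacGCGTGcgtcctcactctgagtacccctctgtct
Gstp2, chr19:4042202-4042421, minus strand: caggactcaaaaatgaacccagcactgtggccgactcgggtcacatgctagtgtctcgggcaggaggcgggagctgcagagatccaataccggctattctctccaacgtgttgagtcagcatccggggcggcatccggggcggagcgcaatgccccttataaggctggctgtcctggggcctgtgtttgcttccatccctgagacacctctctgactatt
Ugt1a1, chr1:88211759-88211978, plus strand: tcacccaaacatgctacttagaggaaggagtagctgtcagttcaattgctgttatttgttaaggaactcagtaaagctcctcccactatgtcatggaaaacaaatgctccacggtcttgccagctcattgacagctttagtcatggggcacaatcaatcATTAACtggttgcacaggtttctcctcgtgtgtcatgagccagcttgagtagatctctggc

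The Gsta1 and Gsta2 windows were identical at 173 of 226 aligned positions (76.5%) and the Gstp1 and Gstp2 windows at 173 of 236 (73.3%). The XRE core began 2 bases before the annotated start in Gsta1, 7 in Gsta2 and 13 in Gstp1, and the Gstp2 window held none. The HNF1 half-site of Ugt1a1 began 41 bases before its start. Over windows from 250 bases before to 50 after the start, on both strands, RefSeq promoters were matched for 55 of the 63 genes (67 windows) and compared with 32851 promoters in all. The XRE core occurred in 17.9% of the phase II windows and 32.4% of all windows. The HNF1 half-site occurred in 19.4% against 7.1%, and the core TGACNNNGC of the antioxidant response element, which NRF2 binds with a small Maf partner, in 5.97% against 12.4%. None of these 3 letter patterns contains another. The genes with TGACNNNGC in that window were Gsta3, Gstm5, Gstm7 and Mgst1. Other forms of the antioxidant response element were not searched, so a window without these letters is not shown to lack it. The Gstp1 and Gstp2 windows above both hold TGAGTCAGC, which differs from the searched letters at the fourth base.

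In CTL mice, 3 of the 42 tested genes rose and 8 fell 6 h after APAP (limma, Benjamini-Hochberg adjusted p under 0.05 over 10046 genes). Over all genes tested, 15.2% rose and 11.8% fell, against 7.14% and 19.0% of the 42, a contrast given as a description. Both sides of it depend on the scaling. With upper quartile scaling 3 of the 42 rose and 12 fell, beside 12.7% and 15.3% of all genes. With quantile normalization 2 of the 42 rose and 12 fell, beside 13.0% and 15.9%. The median difference over the 42 genes was -0.27 on the log2(FPKM + 1) scale, against -0.01 over all genes tested. By class, 2 GST genes rose and 5 fell, no UGT gene rose and 2 fell, and 1 SULT gene rose and 1 fell. In PPA mice, 5 of the 42 rose and 12 fell, which is 11.9% and 28.6%, against 15.0% and 13.3% of all genes, with a median of -0.25 against 0.0. There 2 GST genes rose and 7 fell, 2 UGT genes rose and 5 fell, and 1 SULT gene rose and none fell. The SULT gene that rose in each response, Sult1e1, entered the test only through the 6 h libraries and adds no support to these counts. These are bulk tissue values, in which fewer cells of a type and less RNA per cell cannot be told apart. The part that the neutrophil genes described above play in these changes was not tested.

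The APAP responses of CTL and PPA mice compare different libraries. Their tests used the same estimate of the spread over all 12 libraries, so the calls in CTL and in PPA are not independent. Gsta1 and Sult1e1 rose in both, which is 66.7% of the phase II risers in CTL and 40.0% of those in PPA. Of all genes that rose, 65.1% in CTL and 66.0% in PPA rose in both (9.87% of all genes tested). The phase II shares rest on few genes, and their difference from this background was not tested. Sult1e1 entered the test only through the 6 h libraries and adds no support to these shares. Gstm2, Gstm6, Gstt1, Gstt2, Gstt3, Ugt2b1 and Ugt3a2 fell in both, which is 87.5% of the phase II fallers in CTL and 58.3% of those in PPA. Of all genes that fell, 58.9% in CTL and 52.2% in PPA fell in both (6.93% of all genes tested), and the difference from this background was not tested. Gstp1 (rose) and Sult2a8 (fell) passed in CTL alone. Gstp2, Ugt2b35 and Ugt2b37 (rose) and Gstk1, Gstm7, Ugt1a1, Ugt2a3 and Ugt3a1 (fell) passed in PPA alone. For none of the 42 genes was the difference between the responses itself called, as set out further on.

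**Figure D1:**
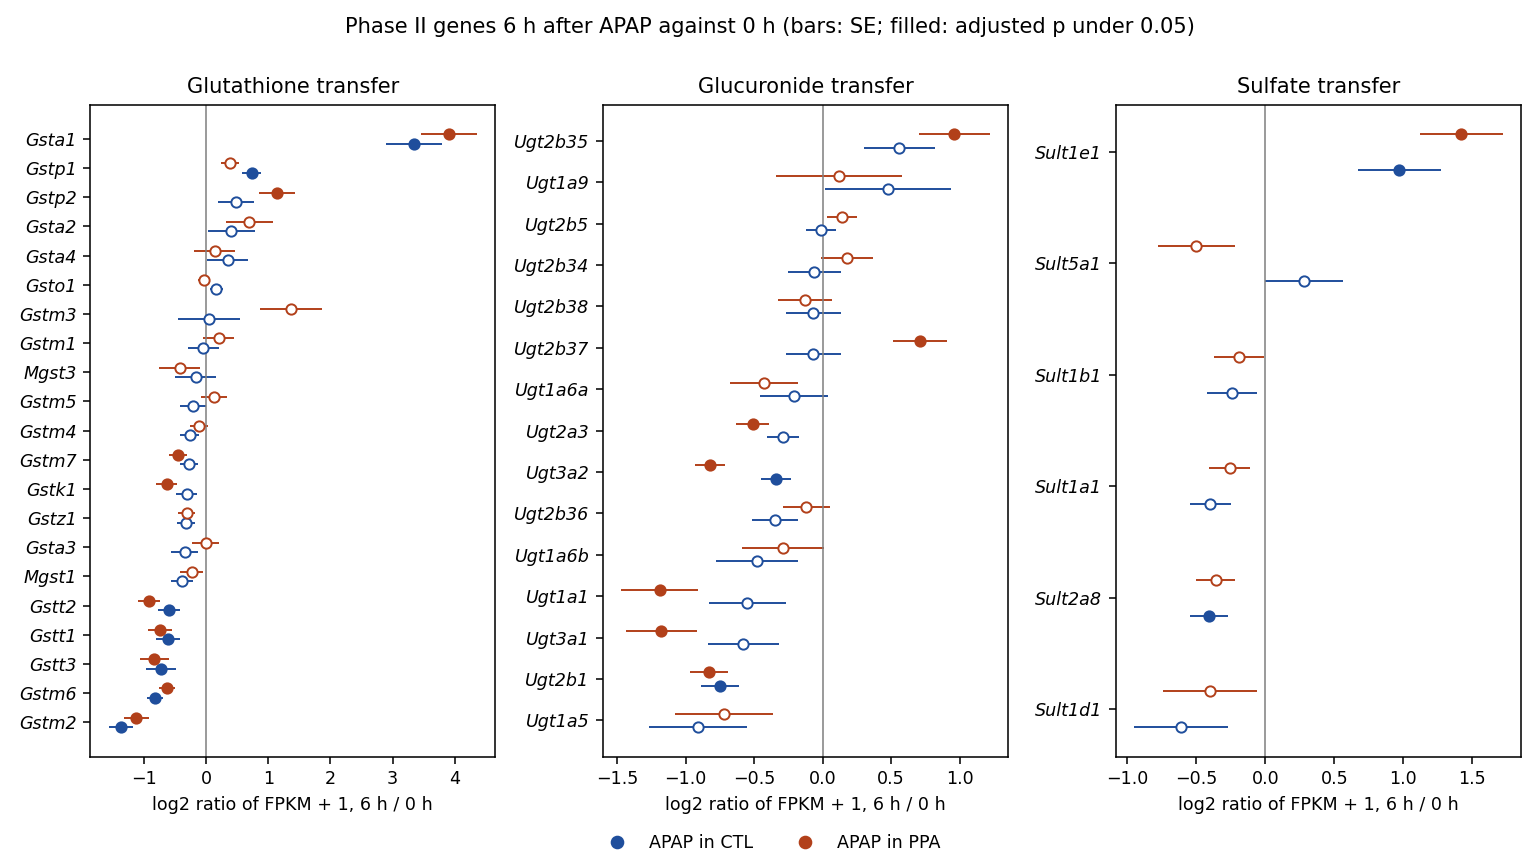
Difference on the log2(FPKM + 1) scale between 6 h and 0 h for the 42 tested genes, by class, in CTL and in PPA livers; bars are 1 SE and filled points passed adjusted p under 0.05. Gsta1 lies farthest to the right, at 3.35 in CTL and 3.91 in PPA, and Gstm2 lies farthest to the left in CTL, at -1.38.

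Glutathione transfer comes first. Gsta1 (chr9:78230656-78242684, plus strand), an alpha class GST inducible through NRF2, had the largest change of the 42 genes in both responses. Values below follow the replicate numbers of the labels (CTL 0 h 1, 3, 4; PPA 0 h 2, 4, 5; CTL 6 h 2, 3, 4; PPA 6 h 1, 2, 5). Gsta1 was at 1.28, 2.38 and 2.85 FPKM in CTL at 0 h and at 1.87, 1.06 and 0 in PPA at 0 h. At 6 h it was at 39.8, 17.1 and 41.7 in CTL and at 39.2, 13.7 and 33.1 in PPA. Every 6 h library stood above every 0 h library. The log2 difference was 3.35 ± 0.45 (SE) in CTL (limma, adjusted p = 0.000213) and 3.91 ± 0.45 in PPA (adjusted p = 6.68e-05).

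Of the 50-base windows of Gsta1 transcripts, 89.7% also occur in another gene, most of them in Gm3776, a neighbouring alpha class locus outside the rule, so the split between these rows is uncertain. Gm3776 rose by 4.26 ± 0.46 in CTL and 4.40 ± 0.46 in PPA on the log2 scale (limma, adjusted p = 3.8e-05 and 3.14e-05). It reached 1 FPKM in 2 of 6 libraries at 0 h, so it passed the filter on low values only through the 6 h libraries. Its rise therefore adds no support to that of Gsta1. Gsta2 shares 64.2% of its windows and was not called: its log2 difference was 0.40 ± 0.38 in CTL and 0.69 ± 0.38 in PPA (limma, adjusted p = 0.464 and 0.198). Summing the 3 rows, a choice made after seeing the data, gave 23.3 ± 7.84 FPKM in CTL at 0 h and 94.9 ± 39.0 at 6 h, and 14.7 ± 0.663 and 83.7 ± 24.8 in PPA. The sum, which holds the Gm3776 row, rose by 1.94 ± 0.31 and 2.39 ± 0.31 on the log2 scale (limma, adjusted p = 0.000657 and 0.000157).

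Gstp1 (chr19:4035407-4037985, minus strand), the pi class GST, was the abundant GST gene that rose. It was at 1817, 1568 and 1825 FPKM in CTL at 0 h and at 2659, 3026 and 2928 in CTL at 6 h, with no overlap. The log2 difference was 0.73 ± 0.15 (limma, adjusted p = 0.00449). In PPA it was already at 2927, 2528 and 2555 at 0 h and reached 4246, 3281 and 2992 at 6 h. That difference, 0.38 ± 0.15, did not pass (limma, adjusted p = 0.0827), and the difference between the responses was -0.35 with a 95% interval from -0.82 to 0.13. Gstp2 (chr19:4040285-4046023) shares 72.6% of its transcript windows with other genes, most of them with Gstp1, so fragments of the pair cannot be told apart with certainty. Gstp2 was at 2.2, 3.33 and 3.07 FPKM in PPA at 0 h and at 8.93, 7.04 and 6.59 at 6 h, a rise of 1.14 ± 0.29 (limma, adjusted p = 0.0116). In CTL it was at 1.13, 1.25 and 3.83 at 0 h and at 1.83, 3.94 and 3.38 at 6 h, and these overlap. The sum of both rows followed Gstp1, with 0.73 ± 0.15 in CTL and 0.38 ± 0.15 in PPA.

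In the mu class, a cluster on chromosome 3, no gene rose in the test and 2 fell in both responses. Gstm2 (chr3:107981702-107986453) was at 36.3, 40.9 and 27 FPKM in CTL at 0 h and at 13.9, 11.8 and 12.2 at 6 h. With PPA it was at 36.7, 27.6 and 40 at 0 h and at 14.6, 20.2 and 11.9 at 6 h. It fell in both, by 1.38 ± 0.20 and 1.13 ± 0.20 on the log2 scale (limma, adjusted p = 0.000361 and 0.00139). Gstm6 (chr3:107938847-107943749) averaged 48.9 ± 2.54 FPKM in CTL at 0 h and 27.3 ± 4.95 at 6 h, and 38.8 ± 0.759 and 24.7 ± 2.27 in PPA, falling by 0.83 ± 0.13 and 0.63 ± 0.13 (limma, adjusted p = 0.000643 and 0.00358). Gstm7 fell in PPA, from 32.6 ± 3.63 to 23.3 ± 2.48 FPKM (limma, adjusted p = 0.0284), a call lost without PPA 0 h replicate 5, PPA 6 h replicate 1 or PPA 6 h replicate 5. Gstm1, the most abundant member of the class at a mean of 604 FPKM, differed by -0.05 ± 0.25 in CTL and 0.20 ± 0.25 in PPA and was not called.

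Gstm3 stood apart through its PPA libraries at 6 h. It was at 50.6 and 47.6 FPKM in PPA 6 h replicates 1 and 2 and at 9.11 in replicate 5, while the other 9 libraries ranged from 7.27 to 17.8. The log2 difference in PPA, 1.37 ± 0.50, did not pass (limma, adjusted p = 0.0579). Gstm1 was also lowest in replicate 5 of that group, with 807 and 901 FPKM in replicates 1 and 2 and 387 in replicate 5. Of the transcript windows of Gstm3 and Gstm1, 28.8% and 23.1% also occur in another gene.

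All 3 tested genes of the theta class, neighbours on chromosome 10 whose enzymes act on small halogenated compounds, fell in both responses. The fourth, Gstt4, did not exceed 0.167 FPKM and was not tested. Gstt2 (chr10:75831114-75837424) was at 121, 83.2 and 99.2 FPKM in CTL at 0 h and at 72.7, 56.4 and 69.6 at 6 h. With PPA it was at 74.3, 92.4 and 115 at 0 h and at 48.1, 42.7 and 53.6 at 6 h. The log2 differences were -0.60 ± 0.18 and -0.93 ± 0.18 (limma, adjusted p = 0.0257 and 0.00212), with no overlap in either. Gstt1 (chr10:75783813-75798584) fell from 275 ± 53.1 to 180.4 ± 48.5 FPKM in CTL, where the groups overlapped, and from 209 ± 20 to 124 ± 10.3 in PPA. Gstt3 (chr10:75774115-75781414) fell from 44 ± 4.81 to 26.4 ± 5.97 and from 31.9 ± 0.835 to 18.4 ± 7.63. Their adjusted p-values from limma were 0.0336 and 0.0139 for Gstt1 and 0.038 and 0.0201 for Gstt3. In CTL each of the 3 calls was lost when CTL 6 h replicate 3 or CTL 0 h replicate 1 was left out. That of Gstt1 was also lost without CTL 0 h replicate 3, that of Gstt2 without CTL 0 h replicate 4, and that of Gstt3 in 8 of the 12 fits without 1 library. In PPA, Gstt1 was lost without PPA 0 h replicate 5 and Gstt3 without PPA 0 h replicate 2, PPA 0 h replicate 4 or PPA 6 h replicate 5.

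Among the remaining GST genes, Gstk1, the kappa class enzyme of mitochondria and peroxisomes, fell in PPA. It was at 142, 147 and 159.8 FPKM at 0 h and at 89.4, 96.8 and 99.9 at 6 h, a log2 difference of -0.64 ± 0.17 (limma, adjusted p = 0.0127). This call was lost without PPA 0 h replicate 5. In CTL Gstk1 was at 223, 170.5 and 151 at 0 h and at 162, 111 and 163 at 6 h, which overlap. Mgst1 was at 3708 ± 539 FPKM in CTL at 0 h and 2829.7 ± 369 at 6 h, and at 3043 ± 247 and 2618 ± 582 in PPA; it was not called (limma, adjusted p = 0.128 and 0.352). Gstz1, the maleylacetoacetate isomerase of tyrosine breakdown, and Gsto1, a thiol transferase of the omega class, were not called either. Their log2 differences were -0.33 ± 0.14 and 0.16 ± 0.10 in CTL.

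**Figure D2:**
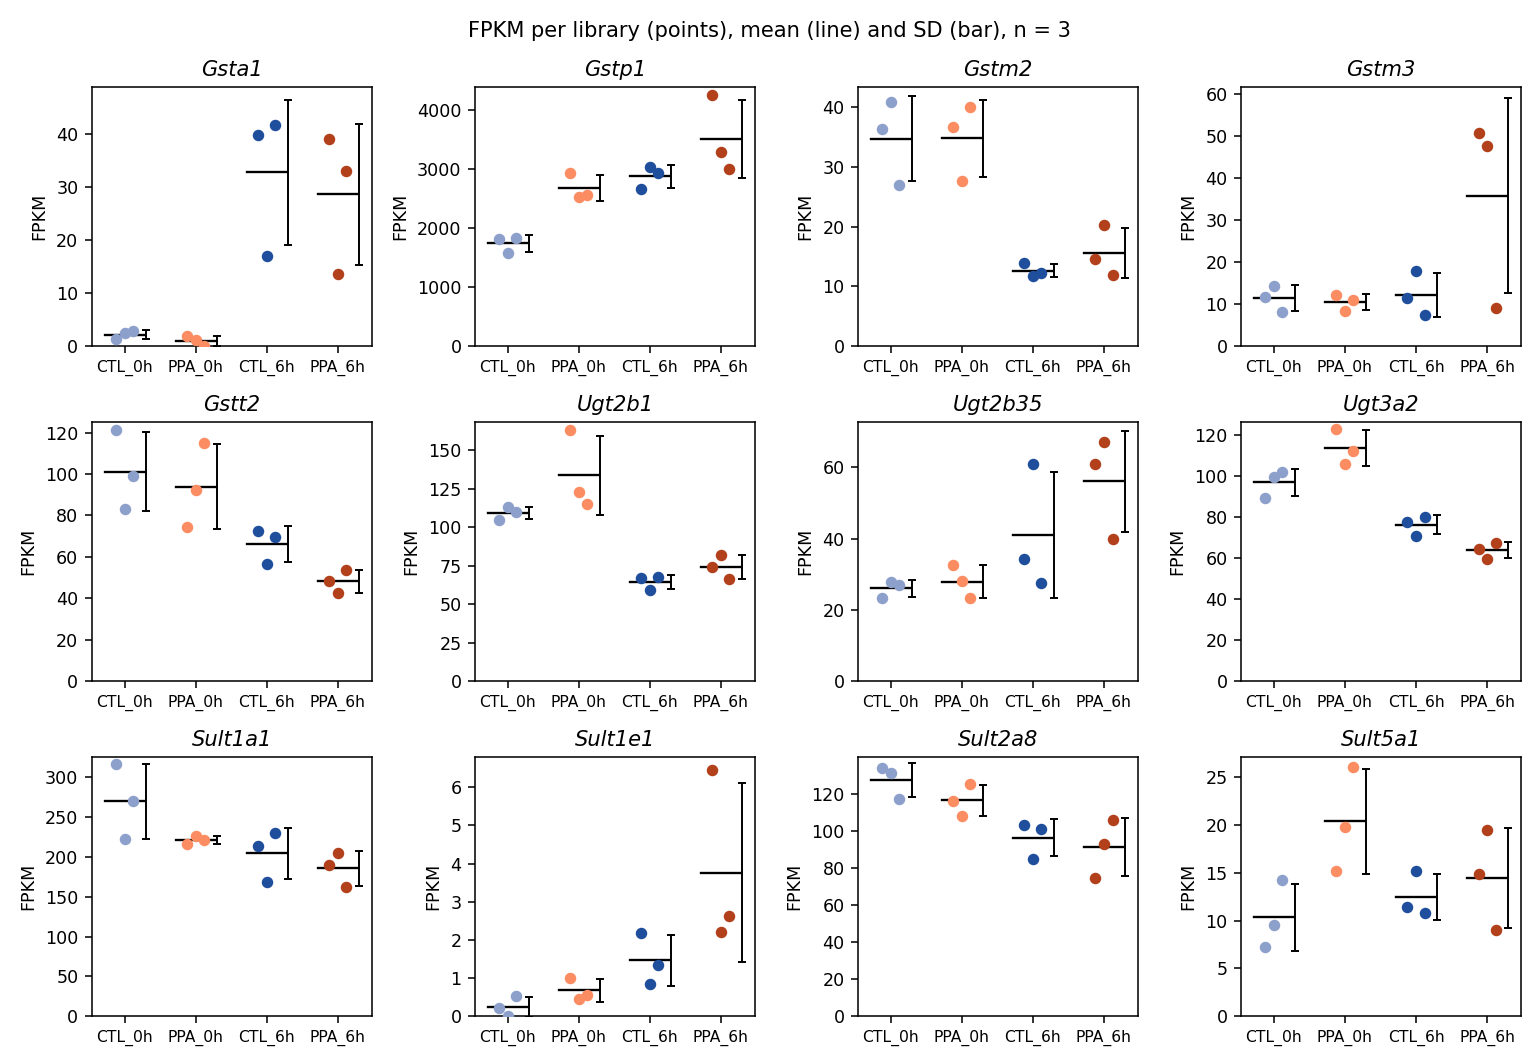
FPKM of 12 genes in each library, by group, on separate linear axes; points are libraries and bars the mean and SD of 3. Gsta1 was at or below 2.85 FPKM in every 0 h library and at or above 13.7 in every 6 h library, whereas Gstm2 and Ugt2b1 were lower in every 6 h library than in every 0 h library of the same water.

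Among the UGT genes, Ugt2b1 (chr5:86916638-86926530, minus strand), a steroid and drug UGT, fell in both responses. It was at 105, 113 and 109.9 FPKM in CTL at 0 h and at 67, 59.2 and 67.6 at 6 h. In PPA it was at 163, 123 and 115 at 0 h and at 74, 82.2 and 66.5 at 6 h. The log2 differences were -0.75 ± 0.14 and -0.83 ± 0.14 (limma, adjusted p = 0.00171 and 0.000879), and the groups did not overlap.

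Of its neighbours in the chromosome 5 cluster, 2 rose in PPA. Ugt2b35 (chr5:87000860-87013275) was at 32.5, 28 and 23.3 FPKM in PPA at 0 h and at 60.9, 67.2 and 40 at 6 h, a rise of 0.96 ± 0.26 on the log2 scale (limma, adjusted p = 0.0144). In CTL it was at 23.4, 27.7 and 27 at 0 h and at 34.4, 61 and 27.6 at 6 h, and the log2 difference of 0.56 ± 0.26 did not pass (adjusted p = 0.123, limma). Ugt2b37 (chr5:87240493-87254804) was at 5.72, 3.83 and 2.42 FPKM in PPA at 0 h and at 6.2, 7.85 and 6.63 at 6 h, a rise of 0.71 ± 0.20 (limma, adjusted p = 0.018). In CTL it averaged 3.94 ± 0.179 and 3.73 ± 0.439. Both rises in PPA were lost without PPA 0 h replicate 5 or PPA 6 h replicate 2, and that of Ugt2b35 also without PPA 6 h replicate 1. The abundant Ugt2b5 differed by -0.01 ± 0.11 in CTL and 0.14 ± 0.11 in PPA, and Ugt2b36 by -0.35 ± 0.17 and -0.12 ± 0.17. Neither was called. Ugt2a3 fell in PPA from 83.3 ± 12.9 to 58 ± 4.22 FPKM (limma, adjusted p = 0.00849), and its values in CTL, 80.2 ± 5.01 and 65.3 ± 3.08, did not pass (adjusted p = 0.0922, limma).

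Ugt3a1 and Ugt3a2, a pair on chromosome 15, belong here by name, since their human counterparts use donors other than UDP-glucuronic acid (N-acetylglucosamine for UGT3A1, glucose and xylose for UGT3A2). Ugt3a2 (chr15:9335550-9370955) was at 89.2, 99.4 and 102 FPKM in CTL at 0 h and at 77.6, 71 and 80 at 6 h. PPA libraries were at 123, 106 and 112 at 0 h and at 64.3, 59.7 and 67.4 at 6 h. It fell by 0.34 ± 0.11 and 0.82 ± 0.11 on the log2 scale (limma, adjusted p = 0.0309 and 0.000164). The call in CTL was lost without CTL 0 h replicate 3 or 4, or CTL 6 h replicate 2 or 3. Ugt3a1 (chr15:9276888-9315032) fell in PPA from 11, 12 and 11 FPKM to 2.88, 5.46 and 5.47, by 1.18 ± 0.26 (limma, adjusted p = 0.0058). In CTL its log2 difference was -0.58 ± 0.26 (adjusted p = 0.119, limma).

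The Ugt1a genes on chromosome 1 have their own first exons and share all later ones, so FPKM must be divided between rows that look alike over much of their length. Between 58.2% and 100% of the 50-base windows of their transcripts occur in another gene. Ugt1a1 (chr1:88211959-88218997), the bilirubin UGT, was at 143, 149 and 128 FPKM in PPA at 0 h and at 73.8, 62.4 and 48.6 at 6 h. It fell by 1.19 ± 0.28 on the log2 scale (limma, adjusted p = 0.00768). In CTL it was at 75.6, 150.5 and 154 at 0 h and at 106, 94 and 55.1 at 6 h, which overlap. Ugt1a6b, of the subfamily whose members conjugate phenols such as APAP, was at 340.4, 176 and 175 FPKM in CTL at 0 h and at 182, 93.3 and 225 at 6 h. It was not called in CTL or PPA, with log2 differences of -0.48 ± 0.30 and -0.29 ± 0.30.

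The division between Ugt1a1 and Ugt1a6b varied between libraries. Ugt1a1 took 17.5% of the Ugt1a sum in CTL 0 h replicate 1 and 18.7% in CTL 6 h replicate 4, where Ugt1a6b took 78.9% and 76.5%. In PPA the Ugt1a1 share was 43.8%, 42.7% and 36.9% at 0 h and 29.1%, 27.6% and 24.7% at 6 h, so the fall of Ugt1a1 went with a shift of the division, whose part in the call was not tested. The sum over all Ugt1a rows, an alternative added after seeing the data, does not depend on that division. It was 387 ± 39.2 FPKM in CTL at 0 h and 277 ± 49.7 at 6 h, and 341 ± 12.3 and 225 ± 28.7 in PPA. The sum fell in both, by 0.49 ± 0.15 and 0.60 ± 0.15 on the log2 scale (limma, adjusted p = 0.0267 and 0.00937).

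**Figure D3:**
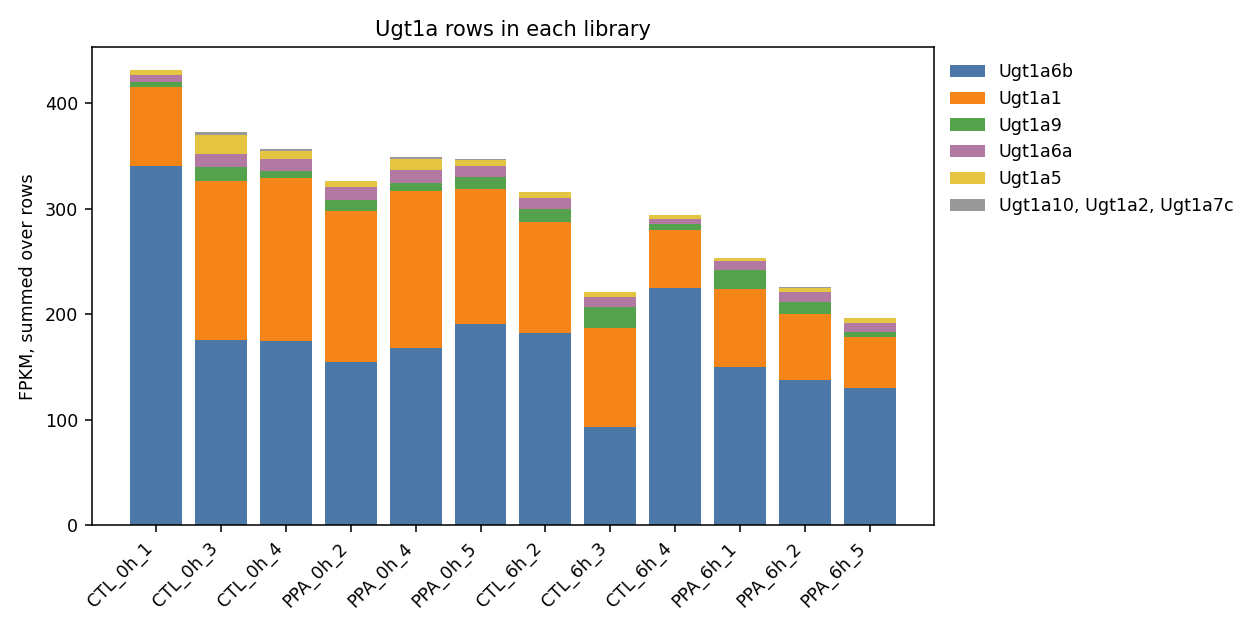
FPKM of the Ugt1a rows stacked in each of the 12 libraries. The whole stack lay between 327 and 432 FPKM at 0 h and between 197 and 316 at 6 h, and Ugt1a1 took its smallest shares, 17.5% and 18.7%, in CTL 0 h replicate 1 and CTL 6 h replicate 4.

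Sulfate transfer rested on 6 tested genes. Sult1e1 (chr5:87575969-87591594, minus strand), the oestrogen sulfotransferase, rose in both responses from very low levels. It was at 0.206, 0 and 0.527 FPKM in CTL at 0 h and at 2.19, 0.856 and 1.35 at 6 h. In PPA it was at 1.01, 0.457 and 0.562 at 0 h and at 6.46, 2.21 and 2.63 at 6 h. The groups did not overlap in either, and the log2 differences were 0.97 ± 0.30 and 1.42 ± 0.30 (limma, adjusted p = 0.0292 and 0.00411). Sult1e1 reached 1 FPKM in 1 of 6 libraries at 0 h, so it passed the filter on low values only through the 6 h libraries. It therefore adds no support to the counts of genes that rose, and few fragments lie behind its 0 h values. In CTL the call was lost when either CTL 0 h replicate 1 or 3, or CTL 6 h replicate 2 or 4, was left out.

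Sult2a8 (chr7:14410686-14446769, minus strand) was at 134, 131 and 117 FPKM in CTL at 0 h and at 103, 84.9 and 101 at 6 h. It fell by 0.41 ± 0.14 on the log2 scale (limma, adjusted p = 0.0434), and this call was lost in 10 of the 12 fits that left out 1 library. In PPA it was at 116, 108 and 125 at 0 h and at 74.7, 92.6 and 106 at 6 h, a difference of -0.36 ± 0.14 that did not pass (adjusted p = 0.0669, limma). Sult1a1 (chr7:126672865-126676432, minus strand) was at 317, 222 and 270.1 FPKM in CTL at 0 h and at 214, 169 and 230 at 6 h. PPA values were 216, 226 and 221 at 0 h and 190.1, 205 and 162 at 6 h. Its log2 differences, -0.40 ± 0.15 and -0.26 ± 0.15, did not pass (limma, adjusted p = 0.0737 and 0.232). Sult1d1, which acts on catecholamines, differed by -0.61 ± 0.34 and -0.40 ± 0.34 and Sult1b1, which acts on thyroid hormones, by -0.24 ± 0.18 and -0.19 ± 0.18. Neither passed.

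PPA was compared with plain water at each time. No phase II gene was called at 0 h, where 0.0199% of all genes rose and 0.00995% fell, or at 6 h, where 0.0597% rose and 0.0796% fell (limma, adjusted p under 0.05). The mean of both PPA effects gave no call among the 42 genes either, against 0.0697% and 0.0299% of all genes. With 3 libraries a group, the 95% intervals of these differences reached a median of 0.43 to each side on the log2 scale, with a range from 0.21 to 1.09. A gene that misses the threshold is not shown to be alike with and without PPA. At an unadjusted p under 0.05, 3 genes were higher and 1 lower at 0 h (3.26% and 3.53% of all genes), and 5 were higher and 8 lower at 6 h (6.03% and 8.82%). For the mean effect 7 were higher and 8 lower (5.54% and 7.42%).

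The lowest p at 0 h belonged to Gstp1. Its PPA libraries (2927, 2528 and 2555 FPKM) lay above its CTL libraries (1817, 1568 and 1825), a log2 difference of 0.62 with a 95% interval from 0.29 to 0.95 (limma, unadjusted p = 0.00148, adjusted p = 0.386). Averaged over both times the difference was 0.45 with an interval from 0.21 to 0.68 (adjusted p = 0.209, limma). Next came Sult5a1 (chr8:123140192-123158315, minus strand), at 15.2, 19.8 and 26.1 FPKM with PPA and 7.23, 9.56 and 14.2 without, a log2 difference of 0.93 with an interval from 0.33 to 1.54 (adjusted p = 0.536, limma). Ugt2b38 and Gstm6 were the others at an unadjusted p under 0.05, with log2 differences of 0.49 and -0.33. At 6 h the lowest adjusted p-values from limma were 0.152 for Gstp2, 0.161 for Ugt2b37 and 0.171 for Gstk1. Gstp2 averaged 7.52 ± 1.24 FPKM with PPA and 3.05 ± 1.1 without, Ugt2b37 6.9 ± 0.856 and 3.73 ± 0.439, and Gstk1 95.4 ± 5.36 and 145 ± 29.9.

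The count at 6 h depended on single libraries. Without CTL 6 h replicate 3, 8 phase II genes were called (limma, adjusted p under 0.05), against 3.31% of all genes that rose and 4.83% that fell. Gstp2, Ugt2b35, Ugt2b37 and Ugt2b38 were higher with PPA and Gstk1, Gstm7, Gstt1 and Mgst3 lower. Without PPA 6 h replicate 5, Gstm1 and Gstm3 were called, with log2 differences of 0.60 and 2.01, against 1.26% and 2.56% of all genes. For the mean effect, 6 genes were called without the first library (1.45% of all genes rose and 1.88% fell) and 2 without the second (0.528% and 1.24%). Weighting libraries by their estimated quality, an estimate that did not converge, called 21 genes at 6 h (15.6% and 20.6% of all genes) and 12 for the mean effect (5.94% and 8.17%).

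**Figure D4:**
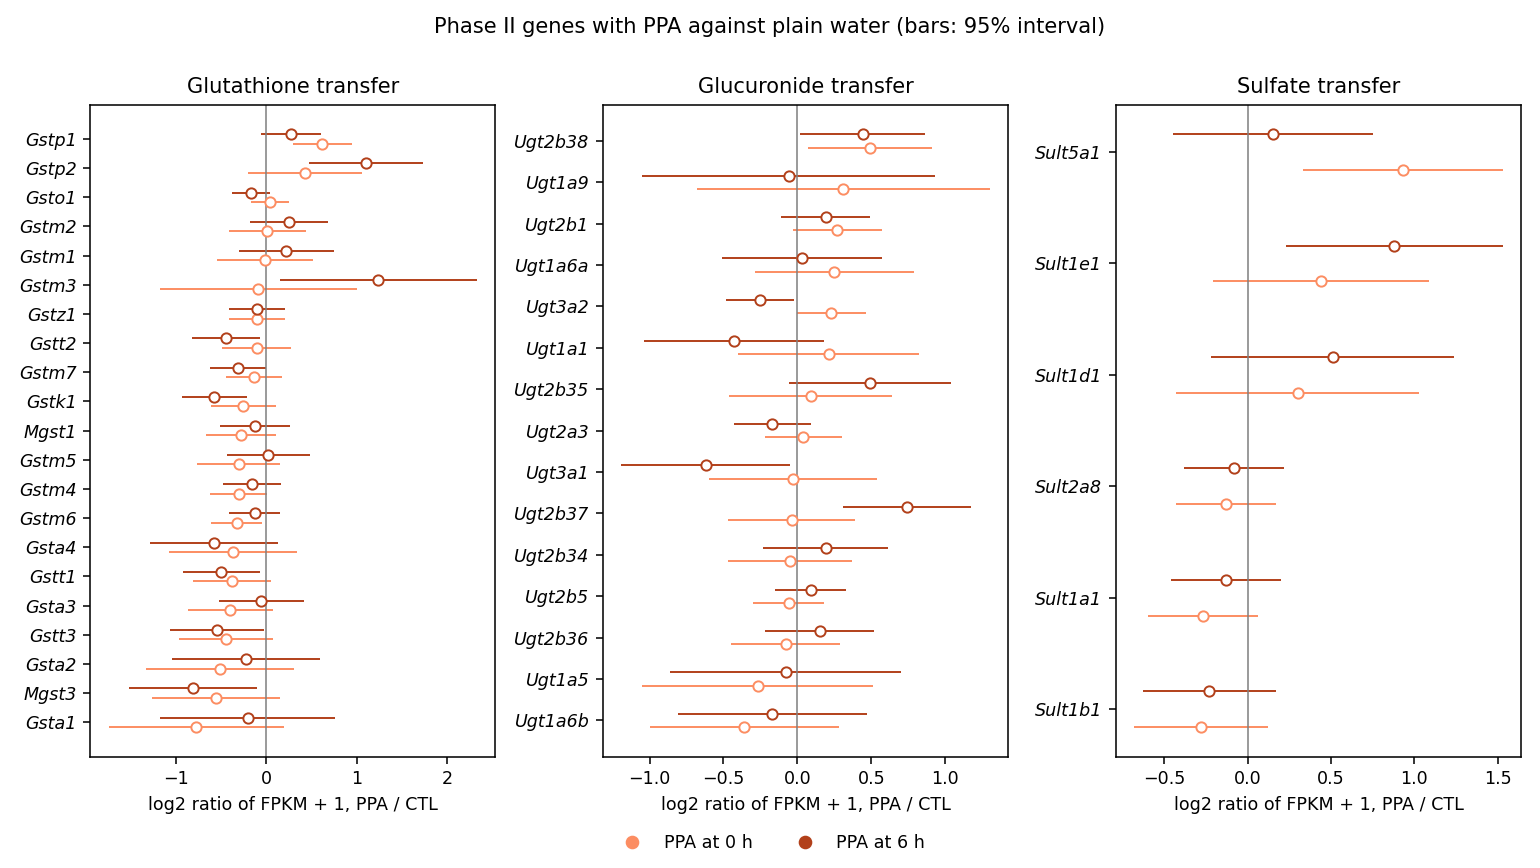
Difference on the log2(FPKM + 1) scale between PPA and plain water at 0 h and at 6 h for the 42 tested genes, by class, with 95% intervals; open points did not pass adjusted p under 0.05. No gene passed. The intervals are not adjusted for the number of genes. At 0 h they lay above 0 for 3 genes and below 0 for 1 (3.26% and 3.53% of all genes). At 6 h they lay above 0 for 5 and below 0 for 8 (6.03% and 8.82%). Among those above 0 were Gstp1 at 0 h, from 0.29 to 0.95, and Gstp2 at 6 h, from 0.47 to 1.73.

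The difference between the PPA effects at 6 h and 0 h, which equals the difference between the APAP responses, was called for none of the 42 genes (limma; 0.0% of all genes rose and 0.00995% fell). At an unadjusted p under 0.05 there were 1 higher and 1 lower, Ugt2b37 and Ugt3a2, against 3.88% and 5.38% of all genes. Ugt2b37 had a difference of 0.78 with a 95% interval from 0.17 to 1.38 (adjusted p = 0.473, limma) and Ugt3a2 one of -0.48 with an interval from -0.81 to -0.16 (adjusted p = 0.458, limma). For Gsta1 it was 0.56, from -0.81 to 1.94, and for Gstm2 0.25, from -0.36 to 0.86. A gene called in CTL alone or in PPA alone was therefore not shown to respond differently.

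The pathways that feed these enzymes were counted from hand-drawn lists, described without a test of the list. The counts below stand beside 15.2% of all genes that rose and 11.8% that fell in CTL, and 15.0% and 13.3% in PPA. Of 9 tested genes of glutathione synthesis and turnover, 5 rose and none fell in CTL, and 5 rose and 1 fell in PPA. Gclc, the catalytic subunit of the first step of glutathione synthesis, rose from 39.5 ± 8.37 to 301 ± 132 FPKM in CTL and from 31.7 ± 3.62 to 384 ± 30.8 in PPA (limma, adjusted p = 5.48e-06 and 5.89e-07). Gss, glutathione synthetase, rose from 43.1 ± 2.39 to 80.6 ± 7.65 and from 37.6 ± 0.679 to 80.7 ± 4.05. Chac1, counted among the 5 although its enzyme breaks glutathione down, rose by 4.79 ± 0.49 and 3.79 ± 0.49 on the log2 scale. Gsr, which regenerates glutathione from its oxidised form, rose by 0.77 ± 0.13 and 0.61 ± 0.13.

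The donors of the other classes, UDP-glucuronic acid and PAPS, have their own supply genes. Of 6 tested genes of UDP-glucuronic acid supply, 3 rose and none fell in CTL, and 4 rose and 1 fell in PPA. Ugdh, which oxidises UDP-glucose to the donor, rose from 53.4 ± 4.75 to 100.5 ± 43.2 FPKM in CTL and from 51.3 ± 4.07 to 142 ± 22.3 in PPA (limma, adjusted p = 0.0188 and 0.000697). Ugp2, which makes UDP-glucose, rose by 0.62 ± 0.17 and 0.74 ± 0.17 on the log2 scale. Pgm1, a phosphoglucomutase, rose from 0.832 ± 0.544 to 3.28 ± 0.653 FPKM in CTL. It reached 1 FPKM in 2 of 6 libraries at 0 h, so it entered the test only through the 6 h libraries and adds no support to the count. Its level was below the level of Pgm2 (128 ± 9.37 in CTL at 0 h), which fell in PPA. Of 9 tested genes of PAPS supply, none rose and 2 fell in CTL, and none rose and 5 fell in PPA. Papss2, the main PAPS synthase of liver, fell from 22.7 ± 5.93 to 10.9 ± 2.16 FPKM in CTL and from 27.2 ± 3.24 to 9.25 ± 2.0 in PPA (limma, adjusted p = 0.00453 and 0.000296). Suox, which oxidises sulfite to sulfate, fell from 68.4 ± 1.95 to 43.5 ± 3.42 and from 67.2 ± 5.72 to 30.1 ± 3.8.

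**Figure D5:**
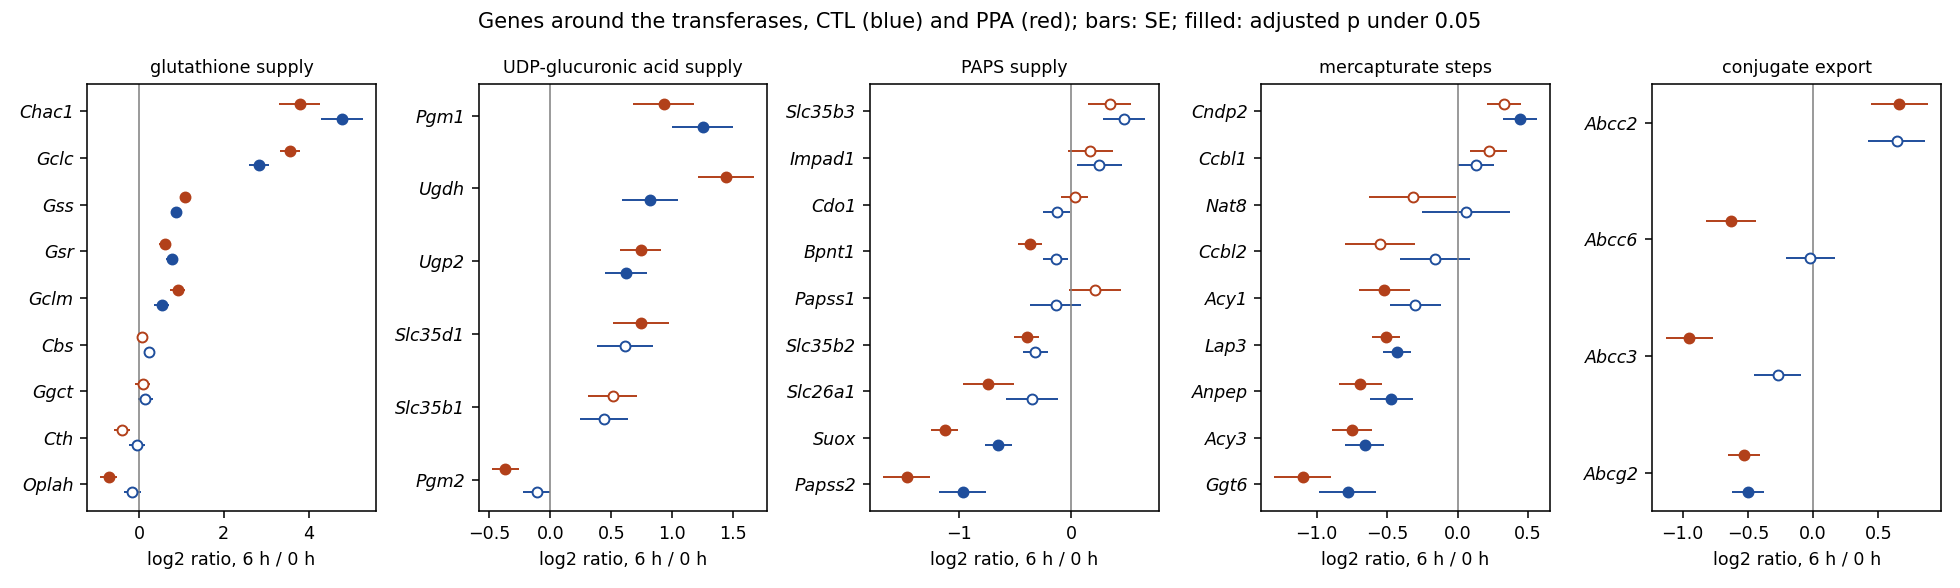
Difference on the log2(FPKM + 1) scale between 6 h and 0 h for the tested genes that supply glutathione, UDP-glucuronic acid and PAPS, trim glutathione conjugates or export conjugates, in CTL (blue) and PPA (red) livers, with bars of 1 SE; filled points passed adjusted p under 0.05. Gclc lay at 2.83 and 3.56, Ugdh at 0.82 and 1.44 and Papss2 at -0.97 and -1.47.

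Downstream of conjugation, beside the same shares of all genes (15.2% and 11.8% in CTL, 15.0% and 13.3% in PPA), 1 of 9 tested genes of the mercapturate route, which trims glutathione conjugates, rose and 4 fell in CTL, and none rose and 5 fell in PPA. Ggt6, Acy3, Anpep and Lap3 fell in both. Among 4 tested conjugate exporters, Abcg2 fell in both (by 0.50 ± 0.12 and 0.53 ± 0.12 on the log2 scale). In PPA Abcc3, of the sinusoidal membrane, fell from 72.2 ± 3.79 to 37 ± 4.52 FPKM (limma, adjusted p = 0.00194), and Abcc6 fell. Abcc2, of the canalicular membrane, rose in PPA by 0.66 ± 0.22 (adjusted p = 0.0427, limma). In CTL the log2 differences were -0.27 ± 0.18 for Abcc3, -0.02 ± 0.19 for Abcc6 and 0.64 ± 0.22 for Abcc2, and none was called. None of 3 tested hydrolases of conjugates passed in either response; Gusb, the beta-glucuronidase, differed by 0.38 ± 0.14 and -0.17 ± 0.14.

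Of 18 tested regulators of phase II genes, 4 rose and 5 fell in CTL, and 4 rose and 6 fell in PPA, beside 15.2% and 11.8% of all genes in CTL and 15.0% and 13.3% in PPA. Nfe2l2, which encodes NRF2, rose from 11 ± 2.15 to 20.6 ± 2.71 FPKM in CTL and from 11.6 ± 1.39 to 17.8 ± 2.76 in PPA (limma, adjusted p = 0.00217 and 0.0193). Its small Maf partner gene Maff rose from 1.79 ± 0.685 to 259 ± 35 and from 1.81 ± 0.417 to 205 ± 4.76. Bach1, which competes with NRF2 for the same elements, rose by 1.90 ± 0.19 and 1.61 ± 0.19 on the log2 scale. Nr1i3, the drug-sensing receptor CAR, fell from 122 ± 1.65 to 62.2 ± 8.06 FPKM in CTL and from 103 ± 8.63 to 55.5 ± 11.7 in PPA (limma, adjusted p = 0.00048 and 0.000798), and Ppara fell by 1.53 ± 0.18 and 1.46 ± 0.18. No gene of these lists was called for PPA at 0 h, PPA at 6 h, their mean or their difference.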

How the data were processed

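The authors deposited 1 table of FPKM values, fragments scaled to transcript length and library total, for 12 libraries of poly(A) RNA. The submitters' processing notes name HISAT2 2.1.0, Cufflinks, SAMtools 0.1.18-r580, Cuffdiff 2.1.1 and mm10, with no role given for each. All 12 columns were matched to samples by title and 0 were left unmapped.

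Of 24340 rows, 27 carry a date number in place of a symbol. The 1302 short RNA rows were left out of the fit, as were Alb, listed at 0 in all 6 h libraries, and Apoe, listed at 0 in CTL 6 h libraries. Genes with at least 1 FPKM in at least 3 libraries (10046) were tested with limma 3.58.1 in R 4.3.3 on log2(FPKM + 1). The pseudocount of 1 understates changes of low genes. The model had 4 group means over 12 libraries, and empirical Bayes moderation with trend. P-values were two-sided and Benjamini-Hochberg adjusted over all tested genes. The fit was tested on simulated data. Python 3.11.15 (pandas 2.3.3) wrote the tables, and matplotlib 3.10.9 drew the plots.

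FPKM holds no counts, so no count test was run, and depth was estimated from the steps between low values of genes with 1 transcript of at least 3000 bases. Promoters came from RefSeq (GRCm38.p6), gene positions and shared transcript windows from GENCODE on GRCm38.

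The named genes are every called gene, up to 10 per class by smallest adjusted p, the 3 most abundant per class, and up to 4 per pathway list. Nfe2l2 was named beyond the 4 of the regulator list and did not rank among them by adjusted p. The members and lists were chosen with earlier results of these data known. One gene of the pathway lists is not reported here. Gstm3, Gstm1, Ugt2b38 and Sult5a1 in the PPA comparisons, and Gm3776, were added after their values were seen. Alternatives covered the pseudocount, filters, scaling, weights, moderation, the samples fitted, a replicate block and leaving out each library.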

Additional observations from a re-analysis of the deposited data

Results flagged for a closer look

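Ugt3a2 was the phase II gene whose PPA difference had opposite signs at the 2 times in every library. At 0 h all 3 PPA libraries lay above all 3 CTL libraries, by 0.23 on the log2(FPKM + 1) scale, and at 6 h all 3 lay below, by -0.25. The difference between the effects was -0.48 with a 95% interval from -0.81 to -0.16 (limma, unadjusted p = 0.00719, adjusted p = 0.458). It did not pass over all genes tested. Ugt3a2 was picked by this pattern from the tested phase II genes, and the interval rests on the same values. The share of all genes tested that have the pattern was not counted, so whether it is unusual cannot be judged.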

How the results depend on the processing

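No call among the phase II genes changed direction under any alternative. Of 28 called gene results, 16 were kept in every alternative that tested the gene and in every fit without 1 library. The filter of at least 5 FPKM covered 26 of the 28, since Sult1e1 was not tested there. Leaving out each library gave 6 to 11 called genes for APAP in CTL (11 with all libraries), 12 to 20 for APAP in PPA (17), 0 to 8 for PPA at 6 h (0) and 0 to 6 for the mean PPA effect (0). Without CTL 6 h replicate 3 the APAP count in CTL was 6 and without CTL 0 h replicate 3 it was 7. With no filter on low values it was 6. Upper quartile scaling gave 3 that rose and 12 that fell in CTL and quantile normalization 2 and 12, against 3 and 8, while over all genes 12.7% rose and 15.3% fell, and 13.0% and 15.9%, against 15.2% and 11.8%. Sample quality weights, which did not converge and ranged from 0.318 (CTL 6 h replicate 3) to 6.3 (CTL 6 h replicate 2), gave 21 calls for PPA at 6 h (15.6% of all genes rose and 20.6% fell), 12 for the mean PPA effect and 1, Ugt3a2, for the difference between the effects; the cause was not tested. With the replicate number as a block the counts were 10, 16, 0, 0, 0 and 0. Same-numbered libraries did not deviate together (r from -0.282 to 0.086 in 9 pairs). The labels do not say whether the numbers pair the samples, and with 3 libraries a group these correlations cannot settle it. A fit of only the groups compared was not possible for the mean PPA effect or for the interaction. Each group held 3 libraries, and estimated depth was lower at 0 h.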
